A study of Mus musculus with 6 samples.

Results

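The signalling chains of the B cell receptor and 7 surface proteins that modulate the receptor or share the B cell membrane with it were followed across 6 Affymetrix mouse arrays. All probe sets whose single gene symbol was Cd79a, Cd79b, Cd81, Cr2, Cd22, Fcgr2b, Ms4a1, Cd72 or Cd37 were taken, which gave 16 probe sets of 9 genes among 34945 probe sets of 1 gene symbol and 45101 on the array. A further 0 probe sets listed any of these genes among several gene symbols. RNA came from bone marrow B cells of C57BL/6 mice of both sexes, aged 8 to 12 weeks. Before sorting on surface Igκ or Igλ, T cells (CD3+), erythroid cells (Ter119+), NK cells (DX5+) and myeloid cells (CD11b+ or Gr1+) were removed. The 3 groups, of 2 arrays each, were TAK1-deficient Igκ+ cells (genotype label mb-1/TAK1f/f), wild-type Igλ+ cells and wild-type Igκ+ cells (both mb-1/TAK1+/+). Map3k7 encodes TAK1, a MAP kinase kinase kinase that acts downstream of innate and antigen receptors and feeds NF-κB and MAP kinase signalling. All 3 genotype labels begin with mb-1, which RefSeq lists as a synonym of Cd79a, a gene followed here. In the widely used mb1-Cre mouse the recombinase is inserted at that locus, and the labels do not say whether that line was used. Nor do they say whether the arrays of a group represent different animals, and the spread behind every p-value may thus be purely technical.

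The antigen receptor of a B cell is a membrane immunoglobulin that cannot signal by itself. It is held at the surface by a heterodimer of Cd79a (Igα) and Cd79b (Igβ), whose cytoplasmic tyrosine motifs recruit Syk once antigen binds, and both chains are needed for surface expression. Around it sit proteins that raise or lower the signal. Cr2 (CD21) binds complement-coated antigen and belongs, with the tetraspanin Cd81, to the co-receptor complex that lowers the threshold for activation. Cd22, Fcgr2b and Cd72 carry inhibitory motifs that recruit phosphatases. Ms4a1 (CD20) and the tetraspanin Cd37 are B cell membrane proteins with roles in calcium flux and in membrane organisation. Cr2 and Fcgr2b typically increase as B cells mature.

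Of the 7 members with a promoter window, the 3 whose RefSeq start is the outer end of the gene are shown. No expression value entered that choice. Each sequence holds the 250 bases before the RefSeq start (build GRCm38.p6), 5′ to 3′ on the strand of the gene, with motif matches in capitals. The window of Cd79a is chr7:24897247-24897496 on the plus strand, that of Cd81 is chr7:143052500-143052749 on the plus strand, and that of Fcgr2b is chr1:170976072-170976321 on the minus strand.
Cd79a: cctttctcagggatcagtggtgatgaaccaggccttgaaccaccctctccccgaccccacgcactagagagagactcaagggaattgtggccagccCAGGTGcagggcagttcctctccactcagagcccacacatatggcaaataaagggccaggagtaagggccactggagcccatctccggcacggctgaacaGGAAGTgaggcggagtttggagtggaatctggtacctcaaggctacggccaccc
Cd81: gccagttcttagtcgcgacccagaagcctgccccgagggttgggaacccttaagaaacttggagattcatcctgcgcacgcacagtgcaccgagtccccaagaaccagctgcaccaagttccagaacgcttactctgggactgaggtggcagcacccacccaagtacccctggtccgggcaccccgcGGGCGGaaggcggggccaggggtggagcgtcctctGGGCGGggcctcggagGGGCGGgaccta
Fcgr2b: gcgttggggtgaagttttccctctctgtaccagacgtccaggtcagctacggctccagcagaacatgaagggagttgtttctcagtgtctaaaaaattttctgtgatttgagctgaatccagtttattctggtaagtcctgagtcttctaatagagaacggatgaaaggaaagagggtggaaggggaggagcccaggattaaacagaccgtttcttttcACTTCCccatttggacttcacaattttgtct
Motifs were searched on both strands and no matches overlapped. The Cd79a window holds the E-box CAGGTG beginning 154 bases before the start and the ETS core GGAAGT beginning 54 bases before it. The Cd81 window holds the GC-box GGGCGG 3 times, at 63, 28 and 12 bases before the start, and no E-box or ETS match. The Fcgr2b window holds an ETS core on the other strand, read here as ACTTCC, 31 bases before the start. Of all 32851 RefSeq promoter windows of the same length, 17.2% held CAGGTG, 19.7% GGAAGT and 32.7% GGGCGG. The NF-κB consensus, present in 3.90% of windows, had no match in any of the 7 members' windows available, which says only that these letters are not in them. Cd79b and Ms4a1 had no window.

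The deposited values are MAS5 signals, that is, linear intensities scaled so that each array has a trimmed mean of 500.0. Several measures set the TAK1-deficient arrays apart from the wild-type arrays. Their median signals were 324 and 323, against 44.9 to 59.1 on the 4 wild-type arrays, and their spiked hybridization controls had geometric means of 47043 and 41197, against 3985 to 4608. Unspiked controls, which mark the signal with no target, reached a 95th percentile of 77.7 and 75.7 on the TAK1-deficient arrays and of 10.3 to 17.4 on the wild-type arrays. The ratio of 3′ to 5′ control signal, a measure of RNA or labelling quality, was 6.28 and 4.18 for Actb on the TAK1-deficient arrays and 1.25 to 1.58 on the wild-type arrays. Correlations over all probe sets were 0.920 between the TAK1-deficient arrays and 0.962 to 0.984 among wild-type arrays, but 0.435 to 0.512 between the genotypes. These differences lie with the genotype and cannot be told apart from it. Map3k7 itself had signals of 346 and 599 in TAK1-deficient Igκ+ cells, 2149 and 1957 in wild-type Igλ+ cells and 2196 and 1805 in wild-type Igκ+ cells. Its log2 difference between the Igκ+ groups was -2.09 ± 0.28 (SE; limma, Benjamini-Hochberg adjusted p = 0.000178). This value is for a single probe set under the deposited scaling only. Tested probe sets of similar wild-type Igκ+ level, in the bin with a median log2 level of 11.02, mostly fell too. Their median log2 difference was -1.57, with 10th to 90th percentiles of -2.59 and -0.58. A fall of this size was thus common at that level and is no separate check of the deletion. Which part of the gene was deleted is not given in the labels.

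Between the genotypes the members parted in both directions. As deposited, Cd79b, Ms4a1 and Cd72 were higher in TAK1-deficient Igκ+ than in wild-type Igκ+ cells, while Cd79a, Cd81, Cr2, Fcgr2b and 1 probe set each of Cd22 and Cd37 were lower. The sign of the first 3 genes' differences, and of Cr2, depended on how the arrays were scaled. Probe sets were compared as log2(signal + 16) with limma over all 6 arrays, adjusted by the Benjamini-Hochberg method over the 21814 probe sets tested, with a threshold of 0.05. Of the 15 member probe sets that passed the filter on dim probe sets, 13 passed the threshold, 4 higher and 9 lower, and 2 did not. The background was high, since 72.4% of all tested probe sets passed, 31.1% higher and 41.3% lower. The members' share of calls is therefore not a result about them, and their sizes and directions are given below. The median log2 difference of the 15 was -1.43 and their range was -5.89 to 1.23, beside a median of -0.34 over all tested probe sets. In 14 of the 15 the Igκ+ groups did not overlap, beside 87.8% of all tested probe sets. The range of all 4 wild-type arrays was left by both TAK1-deficient arrays for the same number, 4 above and 10 below, beside 82.2%.

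**Figure D1:**
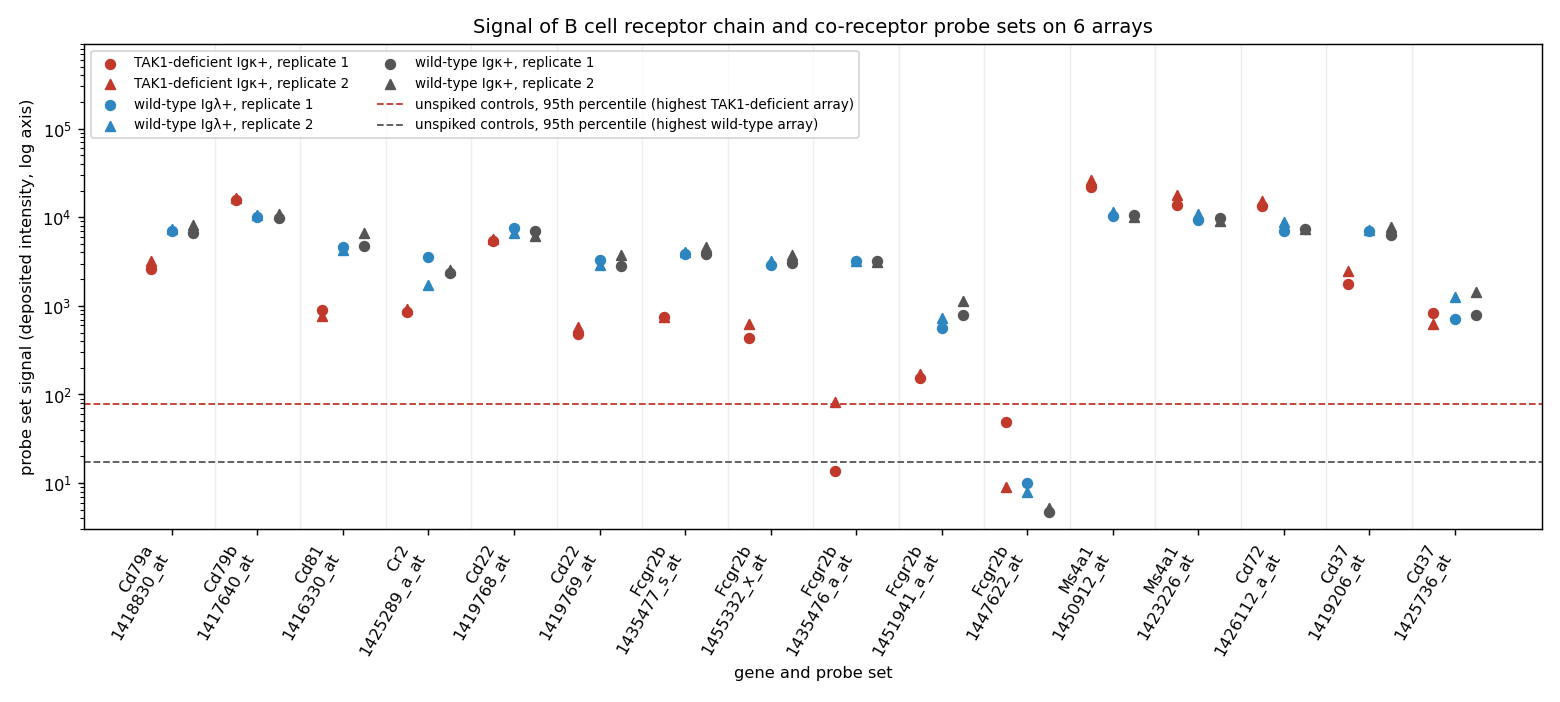
Deposited signal (log axis) of each of the 16 member probe sets on every array, TAK1-deficient Igκ+ in red, wild-type Igλ+ in blue and wild-type Igκ+ in grey, with a circle for replicate 1 and a triangle for replicate 2. Dashed lines mark the 95th percentile of unspiked controls on the highest TAK1-deficient array (77.7) and the highest wild-type array (17.4). On this deposited scaling, which median centring and spiked-control scaling reverse for these genes, red points lie above the others for Cd79b, Ms4a1 and Cd72, and Fcgr2b 1435476_a_at falls to the level of the unspiked controls.

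The chains of the receptor itself moved apart. Cd79a, the chain whose locus is also called mb-1, was measured by probe set 1418830_at and had signals of 2594 and 3166 in TAK1-deficient Igκ+ cells, 6974 and 7354 in wild-type Igλ+ cells, and 6666 and 8190 in wild-type Igκ+ cells. Both TAK1-deficient arrays lay far below every wild-type array, and the wild-type groups overlapped. The mean was 2880 ± 404 in TAK1-deficient Igκ+ cells and 7428 ± 1078 in wild-type Igκ+ cells (SD, n = 2 each), so the signal was 38.8% of that in wild-type Igκ+ cells. On the log2 scale the difference was -1.36 ± 0.16 (SE; limma, Benjamini-Hochberg adjusted p = 8.99e-05). This call was lost after the level adjustment described below (log2 difference -0.34, limma with Benjamini-Hochberg adjusted p = 0.0857).

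Cd79b, its partner in the heterodimer, was measured by probe set 1417640_at and had signals of 15504 and 16459 in TAK1-deficient Igκ+ cells, 10049 and 10647 in wild-type Igλ+ cells, and 9747 and 10878 in wild-type Igκ+ cells. Here both TAK1-deficient arrays lay above every wild-type array. The mean was 15981 ± 675 in TAK1-deficient Igκ+ cells and 10313 ± 800 in wild-type Igκ+ cells (SD, n = 2 each), or 155% of the wild-type Igκ+ signal. The log2 difference was 0.63 ± 0.11 (SE; limma, Benjamini-Hochberg adjusted p = 0.000836) as deposited, and it changed sign under quantile normalization (-0.37), median centring (-1.75) and scaling on the spiked controls (-2.82).

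The unequal change of the partners does not depend on a factor common to an array. Relative to wild-type Igκ+ cells, the change of Cd79b exceeded that of Cd79a by 1.99 log2 units, a 3.98-fold change in their ratio. By array, the log2 ratio relative to the mean of wild-type Igκ+ cells was 2.09 and 1.89 in TAK1-deficient Igκ+ cells, 0.05 and 0.05 in wild-type Igλ+ cells, and 0.07 and -0.07 in wild-type Igκ+ cells. The wild-type arrays thus lay within 0.07 of that mean and the TAK1-deficient arrays far outside. The pair was chosen because its members move in opposite directions, so the gap is a description with no test. The gap was 1.78 after the level adjustment and 0.49 after quantile normalization, which forces the same distribution of signals on every array. Each chain has 1 probe set, so no other probe set of either gene checks it.

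The members of the complement co-receptor complex were both lower as deposited, Cd81 under all 5 scalings described below and Cr2 under all but the level adjustment. Cd81, the tetraspanin that organises the complex, was measured by probe set 1416330_at and had signals of 895 and 773 in TAK1-deficient Igκ+ cells, 4553 and 4277 in wild-type Igλ+ cells, and 4741 and 6588 in wild-type Igκ+ cells. All 4 wild-type arrays were well above both TAK1-deficient arrays, and the spread within wild-type Igκ+ cells was the widest of the groups. The mean was 834 ± 85.9 in TAK1-deficient Igκ+ cells and 5665 ± 1306 in wild-type Igκ+ cells (SD, n = 2 each), with a log2 difference of -2.72 ± 0.20 (SE; limma, Benjamini-Hochberg adjusted p = 7.77e-06).

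Cr2, the complement receptor CD21, was measured by probe set 1425289_a_at and had signals of 858 and 916 in TAK1-deficient Igκ+ cells, 3549 and 1739 in wild-type Igλ+ cells, and 2326 and 2505 in wild-type Igκ+ cells. The TAK1-deficient arrays were again the lowest, and the Igλ+ arrays enclosed the Igκ+ arrays of the wild type. The mean was 887 ± 41.2 in TAK1-deficient Igκ+ cells and 2416 ± 127 in wild-type Igκ+ cells (SD, n = 2 each), or 36.7% of the wild-type Igκ+ signal. The log2 difference of -1.43 ± 0.30 (SE; limma, Benjamini-Hochberg adjusted p = 0.00254) became 0.063 after the level adjustment. In arrays of sorted populations, fewer cells with a transcript and less transcript per cell cannot be told apart.

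The inhibitory receptors did not move together. Fcgr2b, the inhibitory receptor for IgG, fell on all 4 of its probe sets that were tested, while Cd72, the receptor for the semaphorin CD100, rose as deposited but not under median centring or spiked-control scaling. For Cd22, the sialic acid-binding receptor, the probe sets disagreed.

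Fcgr2b 1435477_s_at had signals of 742 and 752 in TAK1-deficient Igκ+ cells, 3818 and 4082 in wild-type Igλ+ cells, and 3845 and 4589 in wild-type Igκ+ cells. The TAK1-deficient arrays differed by little from each other and were the lowest. The mean of 747 ± 7.08 in TAK1-deficient Igκ+ cells stood against 4217 ± 526 in wild-type Igκ+ cells (SD, n = 2 each), and the log2 difference was -2.47 ± 0.17 (SE; limma, Benjamini-Hochberg adjusted p = 6.73e-06). Fcgr2b 1455332_x_at gave nearly the same change, with 434 and 625 in TAK1-deficient Igκ+ cells, 2911 and 3228 in wild-type Igλ+ cells, and 3065 and 3791 in wild-type Igκ+ cells. Its log2 difference was -2.67 ± 0.23 (SE; limma, Benjamini-Hochberg adjusted p = 1.68e-05). The dimmer Fcgr2b 1451941_a_at also separated the genotypes, with 154 and 172 in TAK1-deficient Igκ+ cells, 559 and 736 in wild-type Igλ+ cells, and 778 and 1124 in wild-type Igκ+ cells. There the log2 difference was -2.41 ± 0.31 (SE; limma, Benjamini-Hochberg adjusted p = 0.000157).

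The largest difference among the members belonged to Fcgr2b 1435476_a_at, with signals of 13.8 and 82.1 in TAK1-deficient Igκ+ cells, 3181 and 3241 in wild-type Igλ+ cells, and 3240 and 3119 in wild-type Igκ+ cells. The wild-type groups overlapped within a narrow range, while TAK1-deficient replicate 1 fell under its own unspiked 95th percentile and replicate 2 stood just above its own. The log2 difference of -5.89 ± 0.47 (SE; limma, Benjamini-Hochberg adjusted p = 1.23e-05) thus rests on signals near the no-target level in TAK1-deficient Igκ+ cells. Its size follows the pseudocount, being -6.50 with a pseudocount of 1 and -4.93 with 64, and it was -5.03 without TAK1-deficient replicate 1 and -6.75 without replicate 2. The Fcgr2b probe set 1447622_at, with 48.8 and 9.11 in TAK1-deficient Igκ+ cells, 9.99 and 8.02 in wild-type Igλ+ cells, and 4.73 and 5.29 in wild-type Igκ+ cells, was below the unspiked controls of every array. It did not pass the filter and was not tested.

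Cd22 1419769_at had signals of 479 and 584 in TAK1-deficient Igκ+ cells, 3306 and 2856 in wild-type Igλ+ cells, and 2832 and 3792 in wild-type Igκ+ cells. The genotypes were widely separated, with a log2 difference of -2.60 ± 0.22 (SE; limma, Benjamini-Hochberg adjusted p = 1.56e-05). Cd22 1419768_at had 5386 and 5748 in TAK1-deficient Igκ+ cells, 7539 and 6588 in wild-type Igλ+ cells, and 7034 and 6203 in wild-type Igκ+ cells. It was also lowest in TAK1-deficient Igκ+ cells, but by a log2 difference of -0.25 ± 0.14 that did not pass (SE; limma, Benjamini-Hochberg adjusted p = 0.133). After the level adjustment this probe set was called in the opposite direction, with a log2 difference of 0.81 (limma, Benjamini-Hochberg adjusted p = 0.00176). The changes that the Cd22 probe sets measured were 2.35 log2 units apart. Where each lies in the transcript was not analysed here. The 3′ to 5′ control ratios that differ between the genotypes are those given above, and their part in this gap was not tested.

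Cd72 1426112_a_at had signals of 13492 and 15266 in TAK1-deficient Igκ+ cells, 7047 and 8766 in wild-type Igλ+ cells, and 7265 and 7366 in wild-type Igκ+ cells. Both TAK1-deficient arrays exceeded every wild-type array. The mean was 14379 ± 1255 in TAK1-deficient Igκ+ cells and 7315 ± 70.9 in wild-type Igκ+ cells (SD, n = 2 each). The log2 difference of 0.97 ± 0.14 (SE; limma, Benjamini-Hochberg adjusted p = 0.000251) stayed positive under quantile normalization and turned to -1.41 under median centring and -2.49 under scaling on the spiked controls.

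Of the other B cell membrane proteins, Ms4a1 was higher on both probe sets as deposited, though not under 3 other scalings, and Cd37 was lower on 1 of its probe sets. Ms4a1 1450912_at, for CD20, had signals of 21780 and 26569 in TAK1-deficient Igκ+ cells, 10291 and 11336 in wild-type Igλ+ cells, and 10466 and 10087 in wild-type Igκ+ cells. The TAK1-deficient mean of 24175 ± 3387 was 235% of the wild-type Igκ+ mean of 10276 ± 268 (SD, n = 2 each). Both TAK1-deficient arrays exceeded every wild-type array, and the wild-type groups overlapped. The log2 difference was 1.23 ± 0.12 (SE; limma, Benjamini-Hochberg adjusted p = 3.81e-05). Ms4a1 1423226_at had signals of 13807 and 18016 in TAK1-deficient Igκ+ cells, 9405 and 10788 in wild-type Igλ+ cells, and 9697 and 9103 in wild-type Igκ+ cells. Its TAK1-deficient arrays were also the highest, by a log2 difference of 0.75 ± 0.15 (SE; limma, Benjamini-Hochberg adjusted p = 0.00162). Both Ms4a1 differences became negative under quantile normalization, median centring and scaling on the spiked controls.

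Cd37 1419206_at had signals of 1781 and 2461 in TAK1-deficient Igκ+ cells, 6966 and 7093 in wild-type Igλ+ cells, and 6373 and 7811 in wild-type Igκ+ cells. The genotypes did not overlap, and the log2 difference was -1.74 ± 0.19 (SE; limma, Benjamini-Hochberg adjusted p = 5.13e-05). Cd37 1425736_at had 828 and 630 in TAK1-deficient Igκ+ cells, 718 and 1273 in wild-type Igλ+ cells, and 780.0 and 1417 in wild-type Igκ+ cells. It was the single tested member probe set on which the Igκ+ groups overlapped, and its log2 difference of -0.53 ± 0.37 did not pass (SE; limma, Benjamini-Hochberg adjusted p = 0.218).

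**Figure D2:**
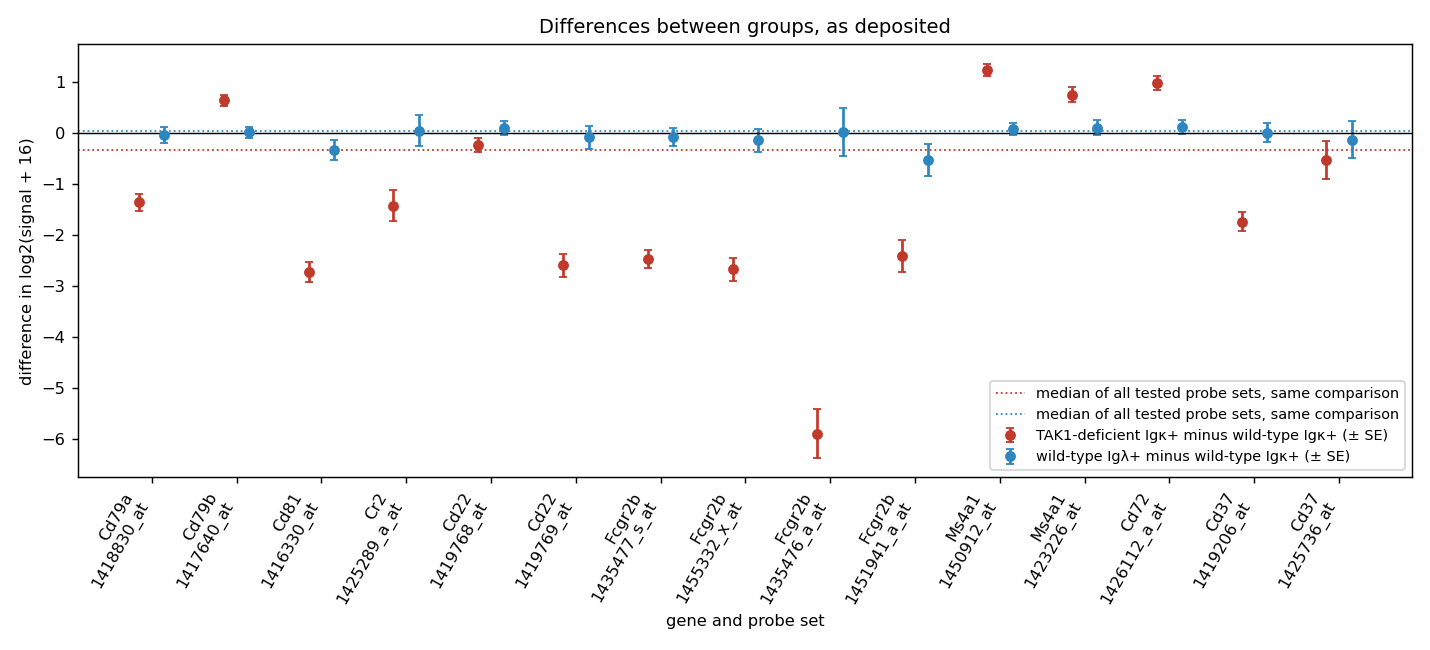
Difference in log2(signal + 16) with its SE for the 15 tested member probe sets, TAK1-deficient Igκ+ minus wild-type Igκ+ in red and wild-type Igλ+ minus wild-type Igκ+ in blue, with dotted lines at the medians over all tested probe sets (-0.34 and 0.03). The red points run from -5.89 to 1.23 and the blue points from -0.53 to 0.10; the positive red points hold for the deposited scaling, and Cd79b, both Ms4a1 probe sets and Cd72 turn negative under median centring and spiked-control scaling.

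The size of a genotype difference depended on how bright a probe set was, so the members were set against probe sets of the same level bin. When tested probe sets were divided into 20 bins of 5% each by wild-type Igκ+ level, the median log2 difference was 5.20 in the dimmest bin and -1.18 in the brightest. The filter took the mean over all 6 arrays, so probe sets dim in wild-type cells passed mainly where the TAK1-deficient arrays were bright. The value of the dimmest bin follows in part from that filter. It also follows in part from binning by a level that enters the difference. In the brightest bin the 10th to 90th percentiles were -2.47 and 0.09, and it held Cd79a, Cd79b, Cd81, Cd72, both Ms4a1 probe sets, Cd22 1419768_at and Cd37 1419206_at. Of the 15 members, 4 lay above the 90th percentile of their bin (Cd79b, both Ms4a1 probe sets and Cd72) and 5 lay below the 10th percentile. These 5 were Cd81, Cd22 1419769_at and the Fcgr2b probe sets 1455332_x_at, 1435476_a_at and 1451941_a_at. Some lay below by less than the SE of their difference. These were Cd22 1419769_at (-2.60 against -2.58), Fcgr2b 1455332_x_at (-2.67 against -2.58) and Fcgr2b 1451941_a_at (-2.41 against -2.38). The brightest Fcgr2b probe set, 1435477_s_at, lay inside its bin. The other 6 lay inside, among them Cd79a, whose difference of -1.36 was close to its bin's median, and Cr2. The brightest bin is wide, with a median level of 12.44 on the log2 scale, and Cd79a (12.85) and Cd79b (13.33) both lie above that median. Signals reached a maximum of 177337 and 167881 on the TAK1-deficient arrays and 15310 to 16295 on the wild-type arrays. Whether an upper limit of the wild-type signals plays a part in the differences of the brightest members was not tested.

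**Figure D3:**
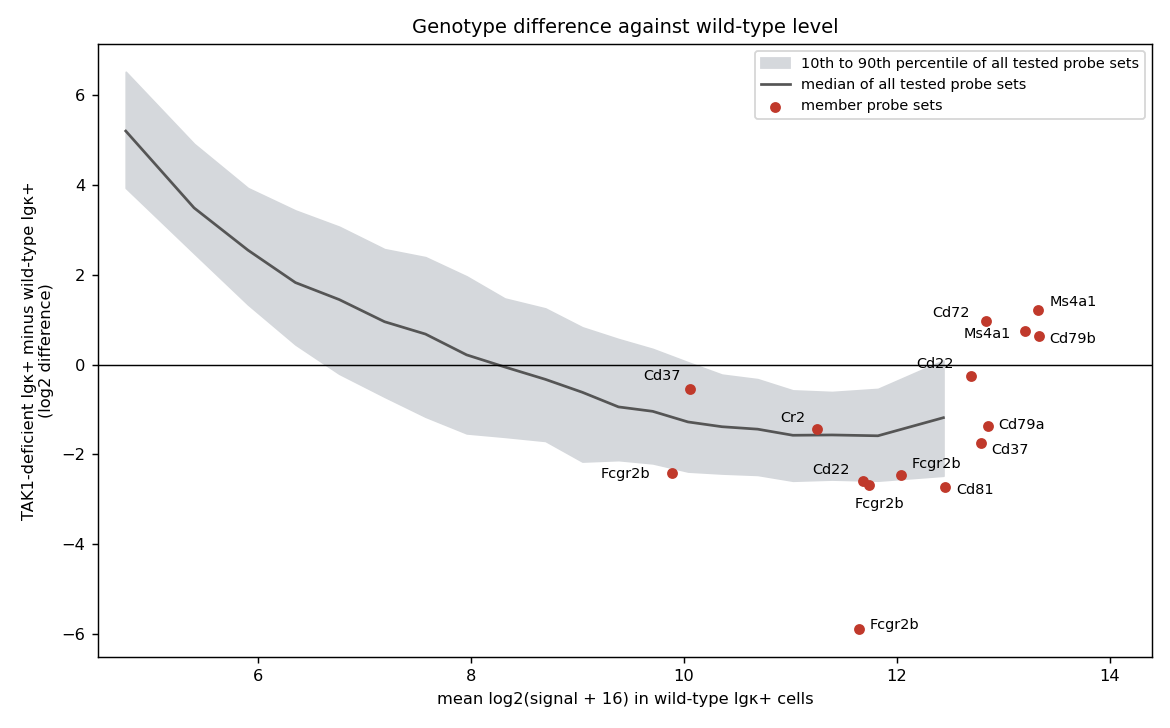
Log2 difference of TAK1-deficient Igκ+ minus wild-type Igκ+ cells against the mean log2 level in wild-type Igκ+ cells for the 15 tested member probe sets (red), with the median (line) and the 10th to 90th percentiles (band) of all tested probe sets in 20 level bins drawn at each bin's median level. As deposited, Cd79b, Ms4a1 and Cd72 lie above the band of the brightest bin (0.09), and below 0 under median centring and spiked-control scaling, while Cd81, Cd22 1419769_at and 3 Fcgr2b probe sets lie below the band of their bins. Of these, Cd22 1419769_at and Fcgr2b 1455332_x_at and 1451941_a_at lie below it by less than their SE.

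Because the deposited scaling fixes only the trimmed mean, the members were compared under 5 scalings. The median of all tested probe sets was -0.34 as deposited, -0.98 after quantile normalization, -2.72 after median centring, -3.51 after scaling on the spiked controls and 0.02 after the level adjustment. That adjustment removes from each TAK1-deficient array a lowess trend against the mean wild-type level. The share of calls that were higher was 42.9%, 26.0%, 12.2%, 7.8% and 56.6% in the same order. Of the 15 members, 8 had a negative difference under all 5 scalings, and 7 of these passed the threshold under all 5: Cd81, Cd22 1419769_at, Cd37 1419206_at and the 4 tested Fcgr2b probe sets. The exception was Cd79a, which did not pass after the level adjustment. The sign of the other 7 depended on the scaling. Under median centring and under spiked-control scaling all 15 members were negative and passed the threshold. A member negative as deposited was bound to be negative there, so these scalings are no separate check of a fall. Relative to the median of all probe sets under the same scaling, 4 members were higher under all 5: Cd79b by 0.61 to 1.42 log2 units, Cd72 by 1.02 to 1.95, and the Ms4a1 probe sets by at least 0.90 (1450912_at) and 0.80 (1423226_at). On the same footing Cd79a ran from -1.29 to 0.12 and Cd37 1419206_at from -1.66 to -0.17, so the place of Cd79a relative to all probe sets changed sign with the scaling and that of this Cd37 probe set came close to 0. Whether the level of the 4 higher members rose or fell thus depends on the scaling, and their place above the median of all probe sets does not. Median centring cannot change that place, since it moves all probe sets of an array equally. Spiked-control scaling can change it only through the pseudocount. The level adjustment subtracts a trend that is negative at the level of these members, whose bin had a median of -1.18. It thus raises them by construction, Cd79b from 0.97 as deposited to 1.42. Only quantile normalization is therefore a separate check of that place.

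**Figure D4:**
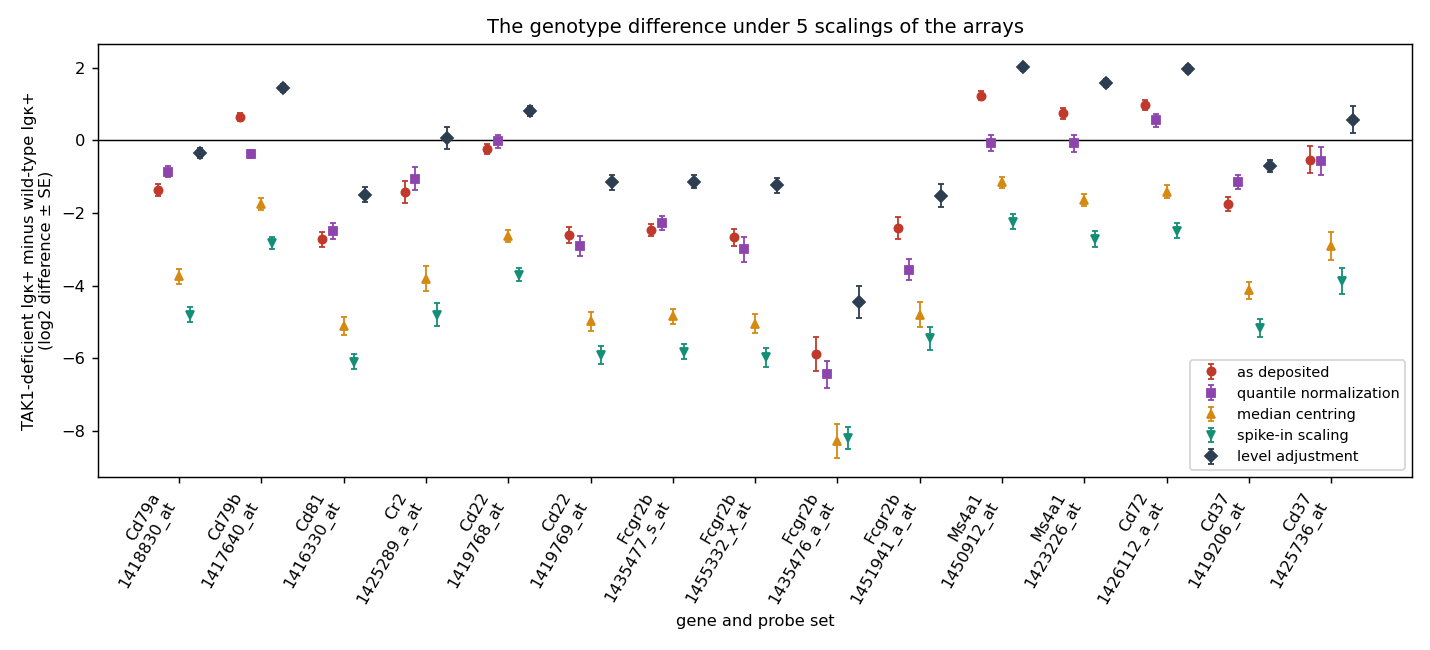
Log2 difference with its SE of TAK1-deficient Igκ+ minus wild-type Igκ+ cells for the 15 tested member probe sets under 5 scalings of the arrays. Cd81, Fcgr2b, Cd22 1419769_at, Cd37 1419206_at and Cd79a are below 0 under all 5, while Cd79b, Ms4a1 and Cd72 are above 0 as deposited and below 0 under median centring and spiked-control scaling.

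No member passed the test between the wild-type populations sorted on different light chains. Between wild-type Igλ+ and wild-type Igκ+ cells, limma called 0 of the 15 members and 0 of the 21814 probe sets tested (0%) at a Benjamini-Hochberg adjusted p of 0.05, with 0 members and 362 probe sets at an unadjusted p under 0.05. The members' log2 differences ran from -0.53 to 0.10, 7 positive and 8 negative, with a median of -0.01 beside 0.03 over all tested probe sets. The groups did not overlap for 2 of the 15, beside 21.6% of all tested probe sets. Both were lower in Igλ+ cells. Cd81 differed by -0.34 ± 0.20 (SE; limma, unadjusted p = 0.121), and the value ranged from -0.58 to -0.10 when each array was left out in turn. Fcgr2b 1451941_a_at differed by -0.53 ± 0.31 (SE; limma, unadjusted p = 0.126), with a range of -0.79 to -0.27 when arrays were left out. Cd79a and Cd79b differed by -0.05 and 0.01 log2 units between these groups.

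The arrays of the wild-type Igλ+ group disagreed on Cr2, with log2 differences from wild-type Igκ+ cells of -0.47 without Igλ+ replicate 1 and 0.55 without Igλ+ replicate 2. Markers of other cells differed between the same arrays. The summed signal of 8 granulocyte markers was 36120 and 320 in wild-type Igλ+ cells and 5198 and 313 in wild-type Igκ+ cells, with 0 and 3 of the 8 at the unspiked level in wild-type Igλ+ cells. That of 8 monocyte and macrophage markers was 10436 and 539 in wild-type Igλ+ cells and 2239 and 950.2 in wild-type Igκ+ cells. Fcgr2b, Cd37 and Cd81 are also made by myeloid cells. In wild-type Igλ+ cells, replicate 2 minus replicate 1 was 0.03 to 0.39 log2 units for the 4 tested Fcgr2b probe sets. It was 0.03 and 0.81 for the Cd37 probe sets and -0.09 for Cd81, so most of these gaps were small. The part of such cells in these values and in the Cr2 values was not tested. Over the tested members, replicates differed by a median of 0.277 log2 units in TAK1-deficient Igκ+ cells, 0.149 in wild-type Igλ+ cells and 0.254 in wild-type Igκ+ cells, and the widest gaps were 1.72 (Fcgr2b 1435476_a_at), 1.02 (Cr2) and 0.848 (Cd37 1425736_at) in the same order.

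The sorted identity was checked with markers of B cells and other cells. Of the 5 listed B cell markers on the array, 2 rose, 2 fell and 1 did not pass in TAK1-deficient Igκ+ cells as deposited. They include Cd79a and Cd79b themselves, which are no independent check, so the other 3 are given. Ebf1, a B lineage transcription factor, had 9309 and 9899 in TAK1-deficient Igκ+ cells, 5926 and 6411 in wild-type Igλ+ cells and 5983 and 6172 in wild-type Igκ+ cells, while Blnk, the adaptor that couples Syk to its targets in B cells, had 2228 and 2160 in TAK1-deficient Igκ+ cells, 5479 and 4906 in wild-type Igλ+ cells and 4589 and 5785 in wild-type Igκ+ cells. As deposited, Ebf1 was thus highest and Blnk lowest in TAK1-deficient Igκ+ cells. The log2 difference of Ebf1 was 0.66, close to that of Cd79b (0.63), whose sign changed with the scaling. The brightest probe set of Pax5, a B lineage transcription factor, stayed between 101 and 193 on all 6 arrays. The 6 T cell markers summed to 3598 and 3946 in TAK1-deficient Igκ+ cells, 250 and 89.3 in wild-type Igλ+ cells and 94.8 and 144 in wild-type Igκ+ cells. Most of the TAK1-deficient sums came from 1 gene, Bcl11b, with 2431 and 2313. Plasma cell markers summed to 4474 and 6072 in TAK1-deficient Igκ+ cells, 12368 and 9537 in wild-type Igλ+ cells and 19777 and 14654 in wild-type Igκ+ cells. As deposited, 3 of 3 tested T cell markers rose, while of 5 plasma cell markers 1 rose and 4 fell. The T cell markers tested had wild-type signals of 5.07 to 46.2. They passed the filter, a mean over all 6 arrays, only through the TAK1-deficient arrays, so a rise among them was built in. Of 8 granulocyte markers 1 rose and 0 fell, and of 7 tested monocyte and macrophage markers 2 rose and 1 fell. Of 2 tested erythroid markers 0 rose and 1 fell, and neither of 2 tested NK cell markers passed. These counts stand beside 26.1% of all genes called higher and 49.7% called lower by their brightest probe sets. Granulocyte markers summed to 7667 and 8261 in TAK1-deficient Igκ+ cells, and monocyte and macrophage markers to 2834 and 2889. Of the T cell markers, 2 and 1 were at the unspiked level of their array in TAK1-deficient Igκ+ cells. The raised signal of dim probe sets on the TAK1-deficient arrays applies to these sums too, and the part of other cells in the members' differences was not tested.

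Genes that work beside the members were also split, and the split depended on the scaling. With the brightest probe set for each gene, 26.1% of 11696 genes were called higher and 49.7% lower in TAK1-deficient Igκ+ cells as deposited, with a median log2 difference of -0.70. Among 9 other receptor and co-receptor genes tested, 2 rose, 1 fell and 6 did not pass as deposited, with a median of 0.07, whereas 0 rose and 7 fell after median centring and 5 rose and 0 fell after the level adjustment. Cd24a, a small glycoprotein of immature B cells, averaged 47840 in TAK1-deficient Igκ+ cells and 11739 in wild-type Igκ+ cells. Its log2 difference of 2.03 ± 0.10 as deposited (SE; limma, Benjamini-Hochberg adjusted p = 2.97e-06) was positive under 3 of the 5 scalings. Cd74, the MHC class II invariant chain, averaged 21684 in TAK1-deficient Igκ+ cells and 12009 in wild-type Igκ+ cells (0.86 ± 0.12), and was positive under 2 of 5. Cd40, the receptor for T cell help, averaged 1915 in TAK1-deficient Igκ+ cells and 5695 in wild-type Igκ+ cells (-1.56 ± 0.15), and was negative under all 5 and called under 4.

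Of 15 inhibitory receptors and phosphatases tested, 1 rose, 12 fell and 2 did not pass as deposited, with a median log2 difference of -1.30. After the level adjustment 1 rose, 2 fell and 12 did not pass, with a median of -0.093. Fcrl1, an Fc receptor-like B cell protein, averaged 945 in TAK1-deficient Igκ+ cells and 4713 in wild-type Igκ+ cells (-2.30 ± 0.16), and was lower and called under all 5 scalings. Ptpn22, a tyrosine phosphatase, averaged 468 in TAK1-deficient Igκ+ cells and 1812 in wild-type Igκ+ cells (-1.92 ± 0.22), and was called under 4. The gene that rose as deposited was Cd5, an inhibitory receptor of T cells and B-1 cells, at 326 in TAK1-deficient Igκ+ cells and 83.8 in wild-type Igκ+ cells (1.81 ± 0.56), but its difference was negative under the other 4 scalings and called under none of them. The T cell marker sums given above were higher in the same arrays, and their part in the Cd5 value was not tested.

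Of 16 other tetraspanin and MS4A genes tested, 3 rose, 9 fell and 4 did not pass as deposited, with a median of -1.04. After median centring 0 rose and 13 fell, and after the level adjustment 2 rose, 4 fell and 10 did not pass. Among the relatives of Ms4a1, Ms4a6c averaged 458 in TAK1-deficient Igκ+ cells and 3974 in wild-type Igκ+ cells (-3.09 ± 0.23). Ms4a4c averaged 491 in TAK1-deficient Igκ+ cells and 4252 in wild-type Igκ+ cells (-3.08 ± 0.23), and both were lower and called under all 5 scalings. Ms4a6d averaged 431 in TAK1-deficient Igκ+ cells and 47.5 in wild-type Igκ+ cells (2.83 ± 0.49). The tetraspanin Tspan33 averaged 400.3 in TAK1-deficient Igκ+ cells and 43.2 in wild-type Igκ+ cells (2.83 ± 0.36). Both rose from a dim wild-type level as deposited, were positive under 4 of 5 scalings and were called under the deposited scaling alone. In the level bin with a median log2 level of 5.91, the median log2 difference of tested probe sets was 2.55. The 10th to 90th percentiles there were 1.34 and 3.93, so a rise of this size was common at that level. The limit of the filter for probe sets dim in wild-type cells applies here too, also to Ms4a7, the remaining gene that rose.

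Of 15 receptor-proximal kinases and adaptors tested, 2 rose, 11 fell and 2 did not pass as deposited, with a median of -1.22, whereas 5 rose, 1 fell and 9 did not pass after the level adjustment. The kinase Fyn averaged 3939 in TAK1-deficient Igκ+ cells and 1944 in wild-type Igκ+ cells (1.01 ± 0.21). The ubiquitin ligase Cblb averaged 3138 in TAK1-deficient Igκ+ cells and 1578 in wild-type Igκ+ cells (0.99 ± 0.39). Both were positive under 3 of the 5 scalings. The adaptor Grb2 averaged 1006 in TAK1-deficient Igκ+ cells and 5768 in wild-type Igκ+ cells (-2.49 ± 0.17), and was lower and called under all 5. The adaptor Dapp1 averaged 329 in TAK1-deficient Igκ+ cells and 1571 in wild-type Igκ+ cells (-2.26 ± 0.36), and was lower under all 5 and called under 4. The values in parentheses are log2 differences with their SE as deposited. Between the wild-type groups limma called 0 genes of any of these 4 lists after Benjamini-Hochberg adjustment, with 2 genes in all at an unadjusted p under 0.05.

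The genes most like each signalling chain were found by Pearson's r of log2(signal + 16) over the 6 arrays among 11695 genes. For Cd79a they were Tomm34, Ifi209 and Rsrp1, with r of 0.9996, 0.9996 and 0.9995, and 3328 genes had r above 0.95. For Cd79b they were Stk4 (r = 0.999), Tmsb10 (r = 0.999) and Rps3a1 (r = 0.998), and 1533 genes had r above 0.95. All 6 points share the split between the genotypes, so these values describe the arrays.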

How the data were processed

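Total RNA of sorted mouse bone marrow B cells was labelled as biotinylated cRNA and hybridised to Affymetrix arrays, per the labels' protocols. The deposited values are probe set intensities on a linear scale, that the authors computed with MAS5, per the submitters' processing notes. The version of that software is not given in the sources used here. Each array's mean without the lowest and highest 2% of probe sets is 500.0. Detection calls were not used, and precision is limited by having 2 arrays per group.

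Gene symbols came from the platform annotation, with RefSeq (GRCm38.p6) for synonyms and promoters. Of 45101 probe sets, 34945 had 1 gene symbol, 932 had several and 64 were controls. Signals were converted to log2(signal + 16), on which fold changes of dim probe sets are understated. Probe sets with a mean above the 40th percentile were kept, which left 21814. The groups were compared with limma 3.58.1 in R 4.3.3 (a mean per group over 6 arrays, 3 residual degrees of freedom, eBayes with a trend, two-sided, Benjamini-Hochberg adjustment, threshold 0.05). The arrays were grouped by title, and the title suffix marks replicate 2. The code was tested on simulated data. Plots were made in Python 3.11.15 with matplotlib 3.10.9.

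The members and the gene lists were chosen with earlier results of these data known. Genes named from a list are at most 4, those with the largest changes in each direction past the threshold. Alternatives were a pseudocount of 1 or 64, a filter at the 60th percentile or none, median centring, quantile normalization, scaling on spiked controls, a lowess level adjustment (span 0.2), the brightest probe set per gene, no trend, a fit of only the 4 arrays compared, a replicate block on the title suffix and leaving out each array.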

Additional observations from a re-analysis of the deposited data

How the results depend on the processing

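Of the 13 calls between TAK1-deficient and wild-type Igκ+ cells, the counts of 13, 4 higher and 9 lower were the same with a pseudocount of 1 or 64, a filter at the 60th percentile or none, no trend, only the 4 arrays compared, the replicate block and without each array in turn (13 to 13). With the brightest probe set per gene, 8 of 9 genes were called, 5 of them lower. Quantile normalization left 1 call higher, median centring left 0 higher and 15 lower, and spiked-control scaling left 0 higher and 15 lower, and the level adjustment gave 12 calls, 5 higher and 7 lower, all by limma. The signs of these differences were reversed under scalings whose medians of all probe sets differ by construction. Under quantile normalization Cd79b was -0.37, Ms4a1 1450912_at -0.076 and Ms4a1 1423226_at -0.080. Under median centring Cd79b was -1.75, Ms4a1 1450912_at -1.15, Ms4a1 1423226_at -1.63 and Cd72 -1.41. Under spiked-control scaling Cd79b was -2.82, Ms4a1 1450912_at -2.23, Ms4a1 1423226_at -2.71 and Cd72 -2.49. Under the level adjustment Cr2 was 0.063, Cd22 1419768_at 0.81 (called higher) and Cd37 1425736_at 0.57. The level adjustment raises these 3 by construction, since it subtracts a trend that is negative at their levels. The medians of their level bins were -1.57 (Cr2), -1.18 (Cd22 1419768_at) and -1.28 (Cd37 1425736_at). What gave rise to that trend was not tested. The change of Cd79b minus that of Cd79a was 0.49 with quantile normalization and 1.78 with the level adjustment, and 1.89 to 2.09 without each array in turn. A comparison with other probe sets of these chains was not run, since each has 1. Between the wild-type groups, 30 of 249 pairs of a member and an alternative changed sign and 0 were called by limma (lowest Benjamini-Hochberg adjusted p = 0.534, lowest unadjusted p = 0.0291).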
